A study of Mus musculus with 4 samples.

Results

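Lef1 Pdgfra cells are fibroblast-like lung cells with RNA of Lef1, a DNA-binding partner of beta-catenin, and of Pdgfra, the receptor for PDGF-A. They were taken from single-cell libraries of embryonic mouse lung by measured values. A barcode passed if it held 1000 or more genes and no more than 15% mitochondrial UMIs (unique molecular identifiers, 1 for each captured RNA molecule). It then needed at least 1 UMI of Lef1 per 10000 UMIs (1 CP10k) and at least 1 UMI of Pdgfra. It also had to lie below 3 CP10k of Myh11 (smooth muscle myosin), 1 CP10k of Tnnt2 (cardiac troponin T), 2 CP10k of Upk3b (a mesothelial uroplakin) and 2 CP10k of Sftpc (an epithelial surfactant protein). The rule kept 623 of 8733 barcodes that passed the gene and mitochondrial limits, of 9586 barcodes in all. Lef1 lies at chr3:131110471-131224356 on the plus strand and Pdgfra at chr5:75152292-75198215 on the plus strand (mm10, GENCODE gene spans). Since the 6 genes of the rule chose the cells, their levels are given as descriptions and were not tested.

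The mutant embryos, labelled Wt1creER Myrf, came from crosses in which one parent was Myrf Fl/Fl and homozygous for the R26TdTomato reporter and the other was Wt1creERT2 and Myrf Fl/Fl, with tamoxifen given to the mother at E12.5 and lungs taken at E16.5. The reference embryos are labelled Cre controls from the crosses described, exposed to tamoxifen at that stage and also positive for tdTomato, and the labels do not give their Myrf alleles. Wt1creERT2 acts in cells that express Wt1, which in lung marks the mesothelium, so tdTomato marks the Wt1 lineage. There were 2 mutant and 2 control libraries of sorted tdTomato-positive, DAPI-negative cells, each from pooled lungs (3 to 5 per genotype), told apart at first by the shape of lung and cells and later by PCR. Nothing in the labels tells if same-genotype libraries had different litters, so p-values measure the spread between these libraries, which may be technical. Although the labels call the sorted cells mesothelial, the Lef1 Pdgfra cells had 113 and 116 CPM summed over the 17 mesothelial markers outside the rule in mutant libraries 1 and 2 and 75.3 and 132 CPM in control libraries 1 and 2 (CPM, UMIs of a gene per 1000000 UMIs of the summed cells). Wt1 itself stood at 1.93 and 2.14 CPM in mutant and 1.42 and 10.6 CPM in control Lef1 Pdgfra cells, against 122 and 73.2 CPM in mutant and 147 and 115 CPM in control barcodes with at least 5 CP10k of Upk3b, which number 1 and 15 in mutant and 119 and 1865 in control libraries.

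Wnt ligands stabilise beta-catenin, which then joins Lef1, Tcf7 and their relatives on DNA and switches on target genes such as Axin2, Nkd1 and Sp5, several of which damp the pathway in turn. In the developing lung, Pdgfra marks mesenchymal cells that include precursors of alveolar myofibroblasts and of matrix fibroblasts, and Wnt2 and Wnt2b are Wnt ligands made by the mesenchyme. Myrf is a membrane-bound transcription factor of the mesothelium, and the study's title concerns its part in mesothelial specification, signalling and plasticity.

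Mutant libraries 1 and 2 held 22 and 445 Lef1 Pdgfra cells, and control libraries 1 and 2 held 18 and 138. Their summed depths were 1038375 and 9803901 UMIs in mutant and 703499 and 4137880 UMIs in control libraries, with medians of 42683 and 19897 UMIs a cell in mutant and 36892 and 27682 in control libraries. The cells were set beside Lef1-low Pdgfra cells, which met every line of the rule except that Lef1 was below 1 CP10k. These numbered 58 and 1412 in mutant and 47 and 305 in control libraries, 1822 in all, with medians of 33561 and 17497 UMIs in mutant and 31765 and 21981 UMIs in control libraries. Libraries shared from 0 to 5 barcode sequences a pair, and 2 Lef1 Pdgfra cells had a shared sequence. Cells with UMIs of the female transcript Xist and of none of 4 Y-linked genes made up 59.1 and 83.6% in mutant and 6.67 and 51.8% in control Lef1 Pdgfra cells in which one or the other, not both, was seen. In a clustering of the whole series, cluster 4, led by Ibsp, Lef1, Tcf7, Enc1 and Pdgfra, held 451 of the 623 cells. Cluster 2, led by Smim41, Slc38a5 and Tcf21, held 110, and cluster 6, led by Crh, Smpx and Ednrb, held 42. Of the Lef1-low Pdgfra cells, 593 were in cluster 4, 830 in cluster 2, 171 in cluster 3, led by Des, 81 in cluster 6, and 70 in cluster 10, led by Dpt, Agtr2 and Ptn, which drew 67 of its 81 cells from control library 2. Cluster 3 drew 234 and 1267 of its 1523 cells from mutant and 3 and 19 from control libraries.

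Among the Wnt target genes described below, Sp5, which encodes a zinc finger transcription factor, differed most between Lef1 Pdgfra and Lef1-low Pdgfra cells, and its promoter is shown because it holds the core letters of TCF/LEF sites, CTTTGAT, searched on both strands (ATCAAAG on the other). RefSeq promoter windows of build GRCm38.p6, 250 bases before to 50 after a gene's start, were found for 13 of 20 genes looked up, the markers and the genes named below as highest in these cells. Of these 13, Sp5 alone held the letters. Its window is chr2:70474673-70474972 on the plus strand, and the match, in capitals, starts at -104 from the gene's start.
Sp5 promoter: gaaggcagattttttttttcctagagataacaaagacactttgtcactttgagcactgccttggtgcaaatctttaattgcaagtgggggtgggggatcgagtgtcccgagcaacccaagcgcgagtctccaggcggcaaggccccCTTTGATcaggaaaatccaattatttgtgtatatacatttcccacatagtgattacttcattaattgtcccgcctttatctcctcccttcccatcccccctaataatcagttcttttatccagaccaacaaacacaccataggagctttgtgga
The letters were in 3.73% of all 32851 windows of that length (1225). They were in at least 1 window of 17 of the 561 genes with a window that were higher in Lef1 Pdgfra cells, 3.03%, and of 258 of the 8539 genes with a window that were tested, 3.02%. A match is a description of the sequence, and no binding was measured.

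Lef1 RNA in the Lef1 Pdgfra cells was low and continuous. Over the 623 cells it ran from 1.01 to 13.7 CP10k with a median of 1.61, and the cells just inside the limit (1.0052 and 1.0055 CP10k) and just outside it (0.9965 and 0.9957 CP10k) were close to each other. The medians were 1.87 and 1.53 CP10k in mutant and 2.27 and 1.68 CP10k in control libraries. At this depth 44 of the 623 cells were chosen on 1 Lef1 UMI and 108 had 1 Pdgfra UMI, while 1194 of the 1822 Lef1-low Pdgfra cells had no Lef1 UMI. Summed over cells, Lef1 stood at 177 and 175 CPM in mutant and 243 and 190 CPM in control Lef1 Pdgfra cells, against 23.2 and 25.2 CPM in mutant and 27.0 and 26.0 CPM in control Lef1-low cells. Pdgfra stood at 497 and 198 CPM in mutant and 394 and 315 CPM in control Lef1 Pdgfra cells, against 254 and 145 CPM in mutant and 296 and 210 CPM in control Lef1-low cells. Pdgfra was thus higher in the Lef1 Pdgfra cells of each library, although its limit was the same for both.

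The 4 markers given for these cells, which were chosen on these data, are described by their levels (the fit over all genes includes them, but their calls support nothing here) and separated from Lef1-low cells to different degrees. Enc1, an actin-binding kelch protein, had 154 and 108 CPM in mutant and 115 and 126 CPM in control Lef1 Pdgfra cells, against 61.0 and 52.1 CPM in mutant and 34.0 and 48.9 CPM in control Lef1-low cells. Tcf7, a paralog of Lef1, had 121 and 85.6 CPM in mutant and 108 and 77.6 CPM in control Lef1 Pdgfra cells, against 47.4 and 45.0 CPM in mutant and 38.4 and 36.6 CPM in control Lef1-low cells. For both genes the Lef1 Pdgfra cells of every library lay above the Lef1-low cells of every library. Hoxb5, an anterior Hox gene of lung mesoderm, had 182 and 170 CPM in mutant and 199 and 177 CPM in control Lef1 Pdgfra cells, against 132 and 151 CPM in mutant and 131 and 108 CPM in control Lef1-low cells. Etv1, an ETS factor downstream of FGF receptors, had 170 and 99.0 CPM in mutant and 142 and 144 CPM in control Lef1 Pdgfra cells, against 117 and 93.0 CPM in mutant and 152 and 88.2 CPM in control Lef1-low cells. The Etv1 levels of the 2 kinds of cells overlapped, and in control library 1 the Lef1-low cells were higher.

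**Figure D1:**
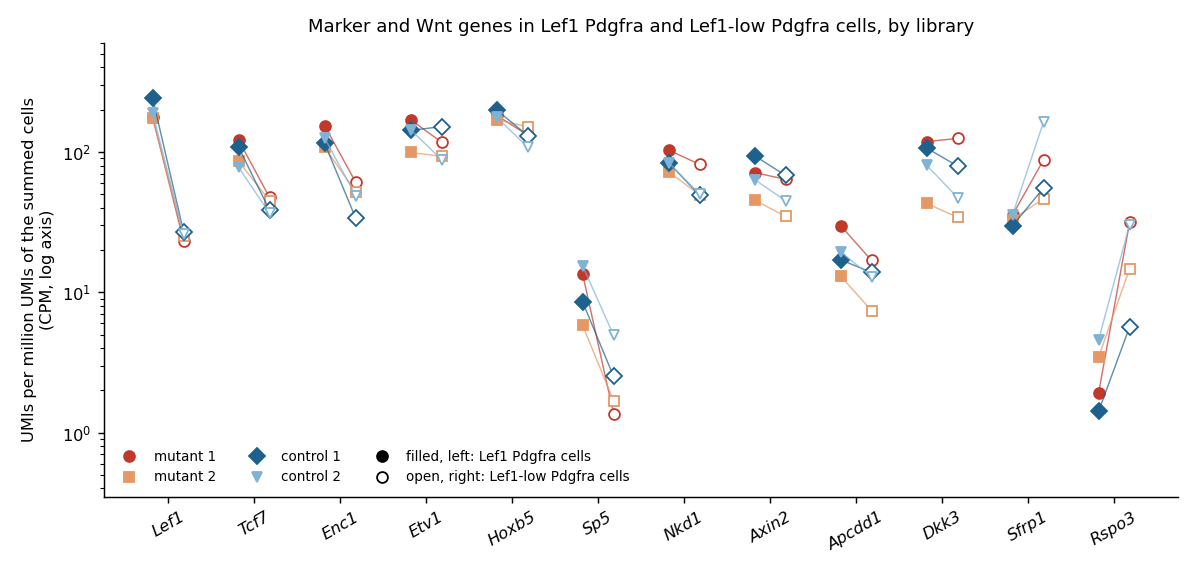
CPM (log axis) of the markers and of Wnt genes in the summed Lef1 Pdgfra cells (filled, left) and Lef1-low Pdgfra cells (open, right) of each library, joined by a line for each of the 4 libraries. Lef1, which split the cells, and Sp5 drop steeply from left to right, Etv1 levels overlap, and Sfrp1 and Rspo3 climb in the 4 libraries.

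Cells were thinned to 5000 UMIs each so that shares of cells with a UMI could be compared, which left out shallower cells. At that depth Tcf7 was seen in 22.7 and 28.7% of mutant and 41.2 and 32.6% of control Lef1 Pdgfra cells, against 15.5 and 17.4% of mutant and 19.1 and 14.2% of control Lef1-low cells. In endothelial-gated barcodes (at least 2 UMIs of Pecam1 and 1 of Cdh5), which should lack Pdgfra, Pdgfra was seen in 11.1 and 5.56% of mutant and 0.0 and 7.14% of control barcodes, against 86.4 and 61.9% of mutant and 82.4 and 77.8% of control Lef1 Pdgfra cells. Thinning hides UMIs that cells hold. Lef1, held by all Lef1 Pdgfra cells, was seen in 68.2 and 59.4% of mutant and 70.6 and 65.9% of control ones. Before thinning, Tcf7 was seen in 86.4 and 70.8% of mutant and 72.2 and 77.5% of control Lef1 Pdgfra cells. At 5000 UMIs, none of Tcf7, Enc1, Etv1 and Hoxb5 was seen in 13.6 and 13.8% of mutant and 17.6 and 14.1% of control Lef1 Pdgfra cells, against 32.8 and 26.1% of mutant and 19.1 and 34.98% of control Lef1-low cells. Control library 1, with 17 such Lef1 Pdgfra cells, had the smallest gap.

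Split by Lef1 level, 13 and 319 mutant and 7 and 92 control cells lay from 1 to below 2 CP10k, 9 and 117 mutant and 9 and 40 control cells from 2 to below 4, and 0 and 9 mutant and 2 and 6 control cells at 4 or more. In the 2 larger libraries, Hoxb5 was at 164, 178 and 303 CPM along these 3 steps in mutant library 2 and at 174, 166 and 329 CPM in control library 2. Tcf7 was at 81.3, 94.4 and 159 CPM in mutant library 2 and at 76.2, 77.6 and 105 CPM in control library 2. Both genes were highest at the top step in these libraries. So was Etv1, at 93.8, 111 and 159 CPM in mutant library 2 and 142, 144 and 182 CPM in control library 2. Enc1 was highest there in control library 2 (121, 122 and 252 CPM) but not in mutant library 2 (99.9, 132 and 115 CPM). Axin2 was not highest there in mutant library 2 (42.2, 54.6 and 43.3 CPM) or control library 2 (55.8, 82.8 and 63.1 CPM). Over the first 2 steps Tcf7 was at 132 and 95.05 CPM in mutant library 1 and at 81.3 and 99.7 CPM in control library 1. The top step rests on 9 and 6 cells in the larger libraries and no test was made.

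Wnt response genes that passed the test were mostly higher in the Lef1 Pdgfra cells. The comparison with Lef1-low Pdgfra cells was made on UMI sums with the library as a block (edgeR's quasi-likelihood test, Benjamini-Hochberg adjustment over all genes, threshold 0.05). Of 10886 genes tested, 715 were higher (6.57%) and 745 lower (6.84%), 13.4% in all, and 3043 had an unadjusted p under 0.05 (28.0%), with a median log2 fold change of 0.0034 over all genes. These shares over all genes are the background for each list count of this comparison given below. Of 18 Wnt response genes tested, 6 rose and 1 fell, and the list's median log2 fold change was 0.31. One of the 6 was Tcf7, a marker chosen on these data. Within cluster 4 alone, chosen as an alternative after seeing the data, 45 genes were higher and 91 lower, and 1 of 15 Wnt response genes tested rose. Without control library 2, 255 genes were higher and 357 lower, and without control library 1, 317 and 462.

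Sp5 had 13.5 and 5.81 CPM in mutant and 8.53 and 15.5 CPM in control Lef1 Pdgfra cells, against 1.37 and 1.69 CPM in mutant and 2.52 and 4.94 CPM in control Lef1-low cells. It was higher in the Lef1 Pdgfra cells of every library by a log2 fold change of 1.90 ± 0.27 (SE, n = 4 libraries, edgeR adjusted p = 0.00158). These levels come from 14 and 57 UMIs in mutant and 6 and 64 UMIs in control Lef1 Pdgfra cells, and within cluster 4 alone the log2 fold change was 0.96 (adjusted p = 0.0748). Nkd1, an inhibitor that binds Dishevelled, had 103 and 72.3 CPM in mutant and 83.9 and 83.9 CPM in control Lef1 Pdgfra cells, against 81.5 and 49.4 CPM in mutant and 49.1 and 50.1 CPM in control Lef1-low cells (log2 fold change 0.63 ± 0.10, SE, edgeR adjusted p = 0.00261). Axin2, a scaffold of the complex that degrades beta-catenin, rose by 0.42 ± 0.10 on the log2 scale (SE, edgeR adjusted p = 0.017), and Apcdd1, a membrane-bound Wnt inhibitor, by 0.72 ± 0.16 (adjusted p = 0.0141). Dkk3, a Dickkopf relative, was called higher by 0.41 ± 0.12 (edgeR adjusted p = 0.0475), although in mutant library 1 it was lower in Lef1 Pdgfra cells (118 against 125 CPM). The 1 Wnt response gene that fell was Sfrp1, a secreted Wnt antagonist, with 35.6 and 32.9 CPM in mutant and 29.9 and 35.8 CPM in control Lef1 Pdgfra cells, against 87.9 and 46.5 CPM in mutant and 55.4 and 164 CPM in control Lef1-low cells (log2 fold change -1.22 ± 0.25, SE, edgeR adjusted p = 0.00999). Nkd1 and Sfrp1 did not pass within cluster 4 alone (adjusted p = 0.17 and 0.647).

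Among 22 Wnt ligands, receptors and co-factors, 2 rose and 4 fell, and 3 of the 4 that fell were R-spondins, secreted proteins that strengthen Wnt signals. Rspo3 (chr10:29452416-29535867, minus strand) had 1.93 and 3.47 CPM in mutant and 1.42 and 4.59 CPM in control Lef1 Pdgfra cells, against 31.4 and 14.7 CPM in mutant and 5.66 and 30.3 CPM in control Lef1-low cells. It was lower in each library (log2 fold change -2.46 ± 0.24, SE, edgeR adjusted p = 0.000291), and also within cluster 4 alone (-2.36, adjusted p = 0.000281). Rspo1 and Rspo2 fell by 1.30 and 1.41 on the log2 scale. The receptors Fzd1 (log2 fold change 0.54) and Ror1 (0.41) rose and the receptor Fzd4 fell by 1.05 on the log2 scale. The ligand Wnt2 had 96.3 and 89.0 CPM in mutant and 131 and 103 CPM in control Lef1 Pdgfra cells, against 70.1 and 89.1 CPM in mutant and 96.9 and 80.2 CPM in control Lef1-low cells, and did not pass (edgeR adjusted p = 0.0752).

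Genes of FGF signalling went both ways. Of 17 tested, 3 rose and 4 fell. Fgf10 (chr13:118669791-118792115, plus strand), the mesenchymal ligand of the epithelial receptor Fgfr2b, had 14.4 and 16.1 CPM in mutant and 21.3 and 11.1 CPM in control Lef1 Pdgfra cells, against 79.2 and 43.3 CPM in mutant and 62.3 and 50.1 CPM in control Lef1-low cells. The groups did not overlap (log2 fold change -1.76 ± 0.17, SE, edgeR adjusted p = 0.000243), and Fgf10 was lower within cluster 4 alone too (-1.39, adjusted p = 0.000548). Fgf7, Fgfr3 and Fgfr4 also fell, while Etv4 and Etv5, ETS factors induced by FGF, and Spry1, a feedback inhibitor of receptor tyrosine kinases, rose. Etv4 had 6.74 and 14.3 CPM in mutant and 8.53 and 10.4 CPM in control Lef1 Pdgfra cells, against 3.64 and 6.85 CPM in mutant and 3.15 and 4.005 CPM in control Lef1-low cells (log2 fold change 1.19 ± 0.20, SE, edgeR adjusted p = 0.00408; 0.79 with adjusted p = 0.142 within cluster 4 alone).

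Other signalling lists were also divided or lower. Of 13 Hedgehog genes, Foxf1, a forkhead factor of lung mesenchyme, rose (log2 fold change 0.74 ± 0.10, SE, edgeR adjusted p = 0.00167), and the co-receptors Cdon and Gas1 and the effector Gli3 fell. The Hedgehog target Gli1 had 110 and 39.6 CPM in mutant and 81.0 and 68.4 CPM in control Lef1 Pdgfra cells, against 64.7 and 31.7 CPM in mutant and 120 and 55.4 CPM in control Lef1-low cells, and did not pass (edgeR adjusted p = 0.256). Of 18 BMP genes, Bmp2, a ligand, and Nog, which binds and blocks BMPs, rose, and Bmp3 and Fstl1 fell. Of 17 TGF-beta genes, Tgfbi rose and 5 fell, and of 9 retinoic acid genes none rose and 3 fell. Of 11 PDGF and IGF genes outside the rule, none rose and 7 fell. Igfbp5, which binds insulin-like growth factors, had 11.6 and 21.4 CPM in mutant and 9.95 and 59.0 CPM in control Lef1 Pdgfra cells, against 373 and 117 CPM in mutant and 201 and 237 CPM in control Lef1-low cells. It was lower in each library (log2 fold change -2.75 ± 0.30, SE, edgeR adjusted p = 0.000538), also within cluster 4 alone (-2.31, adjusted p = 3.565e-08).

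**Figure D2:**
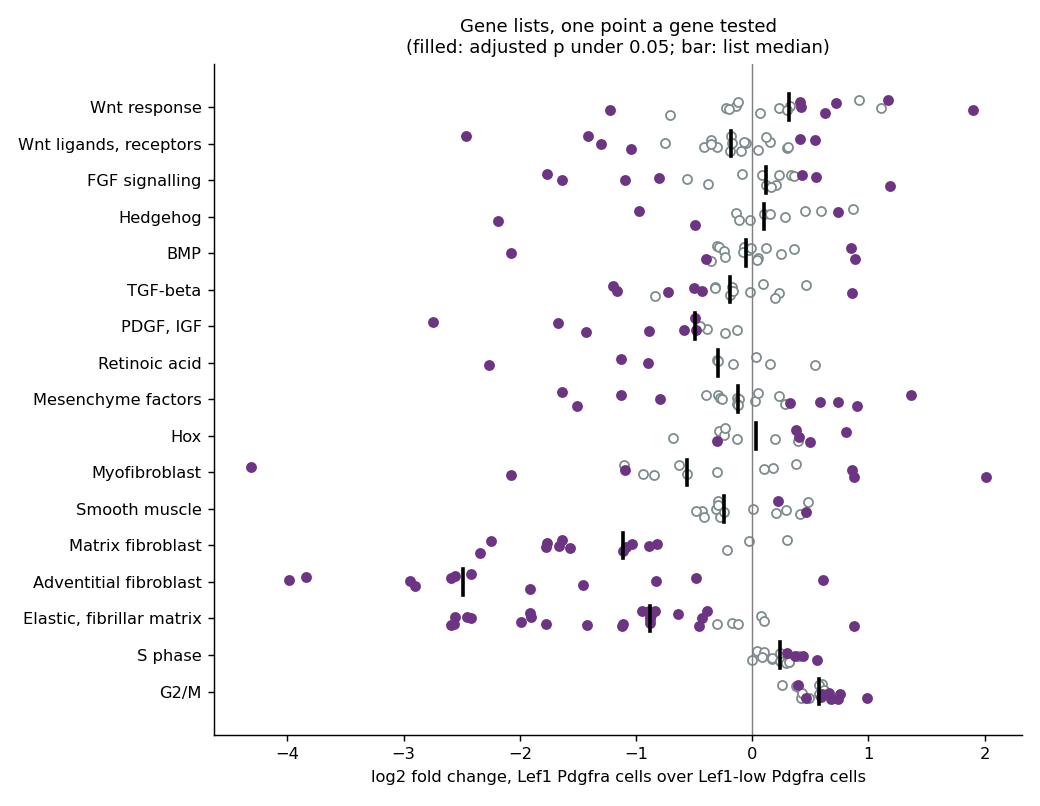
Log2 fold change of Lef1 Pdgfra over Lef1-low Pdgfra cells for each gene tested in 17 gene lists, with filled points for adjusted p under 0.05 and a bar at each list's median. The matrix, adventitial and extracellular matrix lists lie mostly left of 0, and the cell cycle lists lie right of it.

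Transcription factors of lung mesenchyme were divided: of 21 tested, 5 rose and 4 fell. Meox1, a homeobox factor of somites, had 55.9 and 32.6 CPM in mutant and 37.0 and 36.2 CPM in control Lef1 Pdgfra cells, against 14.6 and 13.8 CPM in mutant and 20.1 and 14.3 CPM in control Lef1-low cells (log2 fold change 1.37 ± 0.15, SE, edgeR adjusted p = 0.000469). Tbx3, a T-box factor, had 166 and 148 CPM in mutant and 193 and 175 CPM in control Lef1 Pdgfra cells, against 80.1 and 96.0 CPM in mutant and 93.7 and 93.3 CPM in control Lef1-low cells. Neither gene's groups overlapped, and both were also higher within cluster 4 alone (Meox1 0.78, adjusted p = 0.00431, and Tbx3 0.44, adjusted p = 0.0172). Foxf1, Foxf2 and Tbx5 rose as well. Tcf21, a bHLH factor that marks lipofibroblast and matrix fibroblast precursors, had 22.1 and 44.8 CPM in mutant and 44.1 and 29.7 CPM in control Lef1 Pdgfra cells, against 57.4 and 97.0 CPM in mutant and 305 and 109 CPM in control Lef1-low cells (log2 fold change -1.64 ± 0.20, SE, edgeR adjusted p = 0.000842). Within cluster 4 alone it was -0.14 (adjusted p = 0.84), and Tcf21 is among the leading genes of cluster 2, which holds more Lef1-low than Lef1 Pdgfra cells. Meox2, Prrx1 and Gata6 also fell. Of 12 Hox genes tested, 4 rose and 1, Hoxa5, fell. Of the 4, Hoxb5 is a given marker and its call is no independent support, which leaves Hoxb2, Hoxb4 and Hoxb6, and 1 of 13 rose without control library 1 and none of 10 passed without control library 2.

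Lists that name other fibroblasts and their matrix were lower. Of 15 matrix fibroblast genes none rose and 12 fell, and of 12 adventitial fibroblast genes 1 (Cd34) rose and 11 fell, with list medians of -1.11 and -2.49. Of all genes 6.84% fell, but the 2 lists include leading genes of clusters found in these same data. Tcf21, Slc38a5 and Gyg lead cluster 2, with 830 Lef1-low and 110 Lef1 Pdgfra cells. Dpt, Agtr2, Ptn, Gdf10 and Lum lead cluster 10, with 70 Lef1-low and 0 Lef1 Pdgfra cells. The counts are therefore no independent support, and the part of this cell mix was not tested. Within cluster 4 alone 2 of 13 and 4 of 9 fell. Mfap4, a microfibril protein, had 216 and 229 CPM in mutant and 317 and 298 CPM in control Lef1 Pdgfra cells, against 937 and 488 CPM in mutant and 1844 and 933 CPM in control Lef1-low cells. Dpt, encoding dermatopontin, had 1.93 and 0.10 CPM in mutant and 0.0 and 6.04 CPM in control Lef1 Pdgfra cells, against 5.01 and 3.52 CPM in mutant and 13.8 and 97.2 CPM in control Lef1-low cells. The level of 97.2 CPM is from control library 2, which also gave most cells of cluster 10. Without control library 2, 7 of 10 adventitial genes fell and 1 rose.

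Of 29 genes of elastic and fibrillar matrix 1 rose and 23 fell, with a median of -0.88. Col1a1, a chain of type I collagen, had 710 and 708 CPM in mutant and 824 and 896 CPM in control Lef1 Pdgfra cells, against 1672 and 1211 CPM in mutant and 1637 and 2748 CPM in control Lef1-low cells. The groups did not overlap (log2 fold change -1.12 ± 0.12, SE, edgeR adjusted p = 0.000416). Within cluster 4 alone it was -0.39 (adjusted p = 0.00161), and 8 of 27 genes of the list fell there. Col1a2, Col3a1, Eln, Dcn and Lum fell too. Tnc, encoding tenascin C, was the gene that rose, with 166 and 74.2 CPM in mutant and 125 and 87.2 CPM in control Lef1 Pdgfra cells, against 77.4 and 39.8 CPM in mutant and 70.4 and 57.8 CPM in control Lef1-low cells. Of 19 basement membrane genes none rose and 2 fell, no more than the 13.4% of all genes called, so this list did not stand out.

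The myofibroblast list did not move one way: of 15 tested, Stc1, P2ry14 and Tgfbi rose and Aspn, Bmp3 and Nebl fell. Stc1 (chr14:69029238-69041804, plus strand), a secreted glycoprotein hormone, had 88.6 and 19.4 CPM in mutant and 18.5 and 24.9 CPM in control Lef1 Pdgfra cells, against 9.11 and 7.46 CPM in mutant and 8.18 and 5.21 CPM in control Lef1-low cells. It was the largest rise among genes averaging at least 20 CPM and higher in each library (log2 fold change 2.01 ± 0.27, SE, edgeR adjusted p = 0.00119; 1.25 within cluster 4 alone, adjusted p = 0.000833). Of 15 smooth muscle genes outside the rule 2 rose and none fell, near the 13.4% of all genes called. Acta2, smooth muscle actin, overlapped, with 152 and 396 CPM in mutant and 112 and 246 CPM in control Lef1 Pdgfra cells, against 298 and 514 CPM in mutant and 262 and 198 CPM in control Lef1-low cells (edgeR adjusted p = 0.154).

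The other large rises were Smpx, a small muscle protein (log2 fold change 1.22), Zfp536, a zinc finger repressor (1.13), Htra1, a secreted serine protease (1.10), Peg10, an imprinted retrotransposon-derived gene (1.06), Chst2, a sulfotransferase (1.06), Cd200, a surface glycoprotein (1.03), Ehd3, an endocytic protein (1.01), and Cgnl1, a junction protein (0.99), each with an edgeR adjusted p of 0.00729 or less. Of these, Peg10 and Chst2 also passed within cluster 4 alone. Smpx and Zfp536, like Tgfbi above, are leading genes of cluster 6, with 42 Lef1 Pdgfra and 81 Lef1-low cells. The large falls included Sema3d, a guidance cue, Ogn (-2.95), a small proteoglycan, Ptn (-2.90), a heparin-binding growth factor, Lum (-2.56), Adam23 (-2.54), S100a6 (-2.52) and Dpysl3 (-2.50), beside Igfbp5. Adam23 is a leading gene of cluster 3, with 171 Lef1-low and 4 Lef1 Pdgfra cells, and Ptn and Lum lead cluster 10. The part of the cell mix in these rises and falls was not tested. The haemoglobin genes Hba-a1 and Hba-a2 fell most among genes averaging at least 20 CPM (-4.10 and -3.83), on 1822 CPM of Hba-a1 in the Lef1-low cells of mutant library 1. Without that library Hba-a1 was at -0.53 (adjusted p = 0.302).

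**Figure D3:**
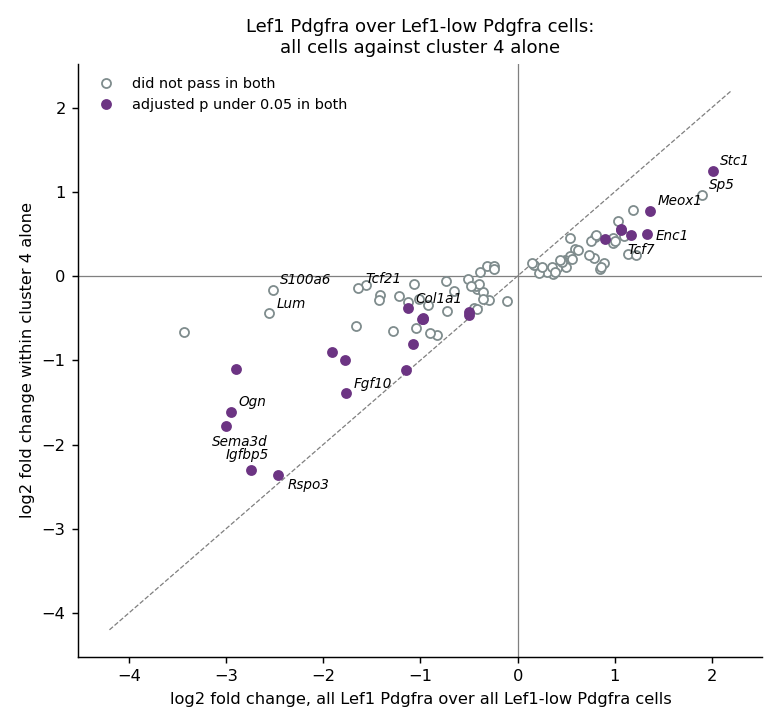
Log2 fold change of Lef1 Pdgfra over Lef1-low Pdgfra cells for the named genes, in all cells (horizontal) and in the cells of cluster 4 alone (vertical), with filled points where both passed and the dashed line where both are equal. Rspo3, Igfbp5, Fgf10 and Stc1 keep most of their difference within cluster 4, and Tcf21 and S100a6 lie near 0 there.

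Mitosis genes were higher in the Lef1 Pdgfra cells, but the call rests on the limits used. Of 19 G2/M genes 9 rose and none fell, with a median of 0.58, and of 17 S phase genes 4 rose and none fell, with a median of 0.24. Top2a, the mitotic topoisomerase, had 1015 and 585 CPM in mutant and 914 and 684 CPM in control Lef1 Pdgfra cells, against 464 and 551 CPM in mutant and 489 and 582 CPM in control Lef1-low cells (log2 fold change 0.60 ± 0.15, SE, edgeR adjusted p = 0.0263). Without control library 1, or with at least 2 CP10k of Lef1, or within cluster 4 alone, none of the 19 passed, and at 2 CP10k the list's median was -0.16. In mutant library 1 the proliferation marker Mki67 stood at 814 CPM in the 13 cells from 1 to below 2 CP10k of Lef1 and at 164 CPM in the 9 cells above them, and in control library 1 at 1213 CPM in 7 cells and 223 CPM in 9. In the larger libraries it stood at 301 and 267 CPM over these steps in mutant library 2 and at 415 and 415 CPM in control library 2. At 5000 UMIs, 50 and 55.3% of mutant and 52.9 and 51.9% of control Lef1 Pdgfra cells had at least 5 UMIs of G2/M genes, against 27.6 and 51.8% of mutant and 34.0 and 35.6% of control Lef1-low cells. Median UMIs per cell were also higher in the Lef1 Pdgfra cells of each library, and the part of depth was not tested.

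Summed over cells, epithelial and immune markers stood at 10.9 CPM or less in the Lef1 Pdgfra cells. Cells with a UMI of another type made up a larger share in control libraries. The 13 epithelial markers outside the rule summed to 5.78 and 4.69 CPM in mutant and 5.69 and 10.9 CPM in control Lef1 Pdgfra cells, with 9 and 4 of the 13 at 0 in mutant and 10 and 5 in control libraries. The 12 immune markers summed to 5.78 and 5.51 CPM in mutant and 1.42 and 7.73 CPM in control libraries, with 9 and 6 at 0 in mutant and 11 and 6 in control libraries. The 12 endothelial markers summed to 114 and 104 CPM in mutant and 86.7 and 110 CPM in control libraries, and Pecam1 stood at 0.0 and 0.10 CPM in mutant and 4.26 and 1.21 CPM in control libraries. In the Lef1-low cells the endothelial sum was 216 and 88.9 CPM in mutant and 88.1 and 311 CPM in control libraries, and the adventitial sum reached 5123 CPM in control library 2. Barcodes without a UMI of Upk3b, Sftpc, Epcam, Pecam1 or Ptprc were 14 of 22 and 408 of 445 mutant Lef1 Pdgfra cells. In control libraries they were 10 of 18 and 61 of 138. These counts are not corrected for depth, and the part of RNA from other cells in them was not tested. With only barcodes without such UMIs kept, 263 genes were higher and 416 lower in Lef1 Pdgfra than in Lef1-low cells.

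The second comparison set mutant against control within the Lef1 Pdgfra cells. In these cells no gene's difference passed the test: of 10494 genes tested outside the rule in edgeR, 0 passed (0.0%) and 195 had an unadjusted p under 0.05 (1.86%). In DESeq2, with 18099 genes tested, 0 passed and 74 had an unadjusted p under 0.05. The smallest libraries held 22 and 18 of these cells. The count depends on single libraries, since 56 genes were higher and 76 lower without mutant library 1, 11 and 11 without mutant library 2, 0 and 7 without control library 1, and 4 and 14 without control library 2. With 1 library left in a group, that library is assumed to vary like the others.

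The targeted gene, Myrf (chr19:10208272-10240748, minus strand), was scarce in these cells. It had 2.89 and 1.33 CPM in mutant and 8.53 and 4.35 CPM in control Lef1 Pdgfra cells, from 3 and 13 UMIs in mutant and 6 and 18 UMIs in control libraries, and did not pass (log2 fold change -1.64 ± 0.75, SE, edgeR adjusted p = 0.9998). Over all barcodes that passed, Myrf stood at 19.1 and 7.23 CPM in mutant and 75.9 and 48.5 CPM in control libraries. Reads of a 3' kit can lie outside the deleted part of a gene, so they do not test the deletion itself. In barcodes with at least 5 CP10k of Upk3b, Myrf had 142 and 78.4 CPM in mutant (7 and 30 UMIs, from 1 and 15 barcodes) and 134 and 73.7 CPM in control libraries.

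The levels that define the cells overlapped between genotypes or lay close together. Lef1 itself was lower in both mutant libraries than in both controls (177 and 175 CPM in mutant against 243 and 190 CPM in control libraries), as a description, since the rule used it. Tcf7 (121 and 85.6 CPM in mutant against 108 and 77.6 CPM in control libraries), Enc1 and Etv1 overlapped, and none of the 4 given markers passed. Of the 18 Wnt response genes none passed, 8 lay higher and 10 lower, and the median log2 fold change was -0.09, beside 0.02 over all genes. Axin2 had 71.3 and 45.3 CPM in mutant and 93.8 and 63.6 CPM in control Lef1 Pdgfra cells, and Sp5 13.5 and 5.81 CPM in mutant and 8.53 and 15.5 CPM in control cells. Both overlapped. Ccnd1, which encodes cyclin D1, had 65.5 and 56.1 CPM in mutant and 38.4 and 40.1 CPM in control cells, and did not pass (log2 fold change 0.67 ± 0.27, SE, edgeR adjusted p = 0.9998).

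The genes of smallest p did not pass either. Col4a4, a basement membrane collagen chain, had 7.70 and 5.10 CPM in mutant and 27.0 and 23.7 CPM in control Lef1 Pdgfra cells (log2 fold change -2.01 ± 0.37, SE, edgeR adjusted p = 0.648). Col4a4 was a leading gene of cluster 5, whose 773 barcodes came from control libraries for 100 and 666 and from mutant libraries for 1 and 6, and in endothelial-gated barcodes it reached 160 and 0.0 CPM in mutant and 3.68 and 124 CPM in control libraries. The part of RNA from other cells was not tested. Hist1h3b, a replication-dependent histone, had 24.1 and 10.5 CPM in mutant and 48.3 and 62.6 CPM in control cells (-1.87 ± 0.36, SE, adjusted p = 0.648), and Hist1h4c, a histone of the same cluster, 34.7 and 14.9 CPM in mutant and 59.7 and 66.5 CPM in control cells. Histone genes are near-identical copies, so reads may be split among them. Of 17 S phase genes none passed between genotypes, and 12 lay higher and 5 lower in mutant cells (median log2 fold change 0.13). P2ry14, a receptor for UDP-sugars, had 15.4 and 12.4 CPM in mutant and 32.7 and 37.9 CPM in control cells, and Gpx3, a secreted peroxidase, 36.6 and 21.8 CPM in mutant and 78.2 and 60.2 CPM in control cells. Ddx3y, a Y-linked helicase, had 22.1 and 13.2 CPM in mutant and 65.4 and 34.3 CPM in control cells, beside the higher share of female cells in the mutant libraries. Among male cells alone 0 genes passed in edgeR.

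The highest-ranked genes on the other side were Mns1 (54.9 and 42.8 CPM in mutant against 31.3 and 27.3 CPM in control cells), Tmem126a, Dnajc15, Birc2 and Mars, with log2 fold changes of 0.77 to 0.81 and edgeR adjusted p = 0.9998. For these 5 genes, as for Col4a4, Hist1h3b, Hist1h4c, P2ry14, Gpx3 and Ddx3y, both mutant libraries lay on one side of both controls, which held for 2466 of the 10494 genes (23.5%), with 0.0% called. Upk3b, which the rule limits, had no UMI in mutant and 8.53 and 19.8 CPM in control Lef1 Pdgfra cells, beside 0.0 and 0.0 CPM in mutant and 3.68 and 136 CPM in control endothelial-gated barcodes.

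**Figure D4:**
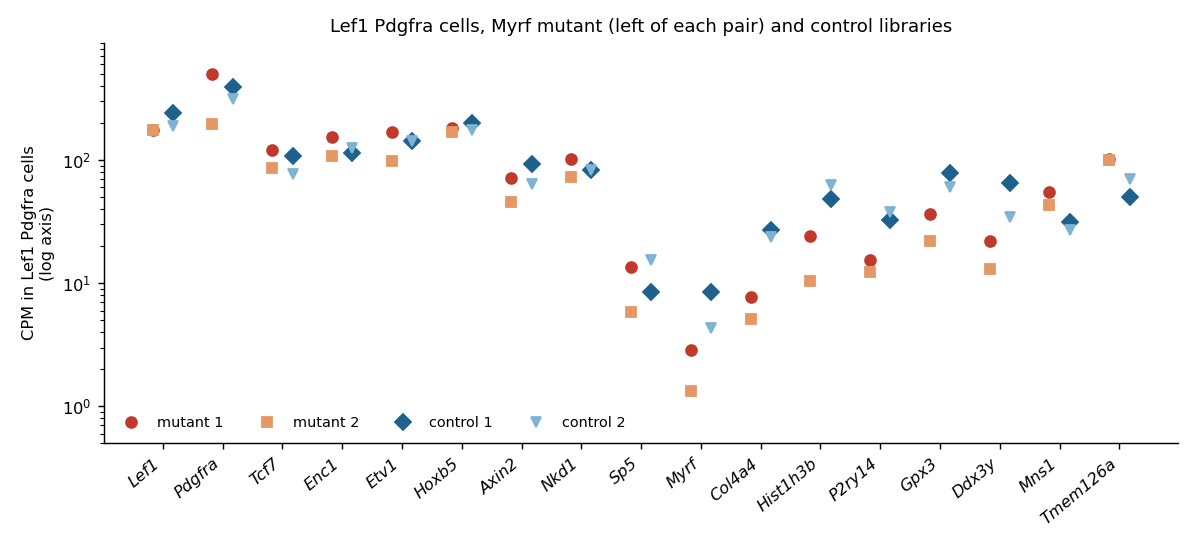
CPM (log axis) in the summed Lef1 Pdgfra cells of mutant (left of each pair) and control libraries, for the markers, Wnt response genes, Myrf and genes of smallest p. The markers and Wnt genes overlap or lie close together, and Col4a4, Hist1h3b, P2ry14, Gpx3 and Ddx3y lie lower in both mutant libraries, without passing the test.

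The third test asked whether the mutant effect differed between Lef1 Pdgfra and Lef1-low Pdgfra cells. Of 10886 genes, 0 passed in edgeR (0.0%) and 273 had an unadjusted p under 0.05 (2.51%). The smallest p values belonged to Mfap5, Col4a4, Myof, Vldlr and Ccl11, with adjusted p of 0.242 or more. Mfap5, a microfibril protein, had 2.89 and 7.85 CPM in mutant and 1.42 and 13.8 CPM in control Lef1 Pdgfra cells, against 8.20 and 20.4 CPM in mutant and 2.52 and 163 CPM in control Lef1-low cells. Its level of 163 CPM stands alone, in control library 2. Without mutant library 2, 23 genes passed as higher and 59 as lower, and without mutant library 1, 22 and 1.

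The share of Lef1 Pdgfra cells among barcodes that passed overlapped between genotypes. They were 5.34% (exact 95% interval 3.38 to 7.97) and 10.0% (9.17 to 11.0) of barcodes that passed in mutant and 6.38% (3.83 to 9.90) and 3.83% (3.22 to 4.50) in control libraries, and intervals cover counting error only. The means were 7.69 ± 3.32% in mutant and 5.10 ± 1.81% in control libraries (SD, n = 2 each), a difference of 2.59 points (two-sided exact permutation p = 0.667, where 0.333 is the smallest this design allows). In control library 2, 2043 of the barcodes that passed lay in cluster 1, with Ngb, Crip1, Pnoc and Rspo1 among its leading genes. It is called mixed here only because 76.4% of cell type markers differed by less than 2-fold from their average elsewhere in that library. Outside it lay 1564 barcodes of control library 2, while 1865 held at least 5 CP10k of Upk3b. Some of these mesothelial-gated barcodes must therefore lie in cluster 1 and leave the total with it. With such mixed barcodes left out the means were 7.70 and 7.69%, 0.0085 points apart. Of Pdgfra cells, Lef1 Pdgfra cells were 27.5 and 24.0% in mutant and 27.7 and 31.2% in control libraries, where both mutant libraries lay below both controls and the difference was -3.69 points (exact permutation p = 0.333). Without the 4 exclusion limits the cells were 9.47 and 12.1% of barcodes that passed in mutant and 8.51 and 7.90% in control libraries, with both mutant libraries above both controls (exact permutation p = 0.333). The sort, the unequal library sizes and the embryos pooled can set such shares and cannot be told apart from genotype here.

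**Figure D5:**
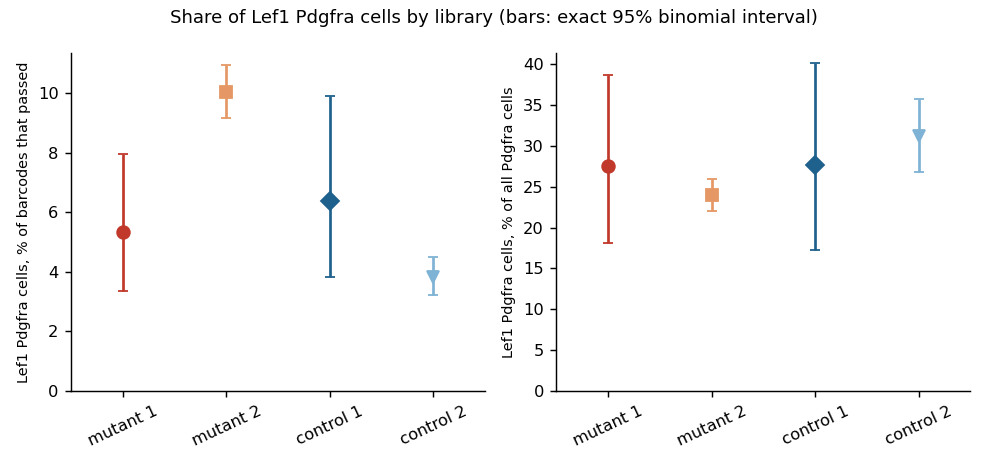
Lef1 Pdgfra cells as a percent of barcodes that passed (left panel) and of all Pdgfra cells (right panel) in mutant and control libraries, with exact 95% binomial intervals. Mutant library 2 is highest in the left panel and lowest in the right one.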

How the data were processed

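The authors deposited UMI counts, whole numbers for each gene in each barcode and not normalized; Cell Ranger 6.0.2 and build mm10 are named in the submitters' processing notes. Strand setting, cell calling and annotation release: not given in the sources used here. About 50000 cells were sorted and about 16000 loaded on a 10x 3' V3 chip, per the labels' protocols. Groups came from the sample titles.

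Counts were summed per library and kind of cell and tested with edgeR 4.0.16 in R 4.3.3 (filterByExpr, TMM, quasi-likelihood test, two-sided, Benjamini-Hochberg, 0.05), checked on simulated data. Cells are not replicates. CPM printed are counts over the sum's total. DESeq2 1.42.0 was an alternative. Clusters were rebuilt (3000 variable genes, 30 components, 15 neighbours, Leiden resolution 0.4; scanpy 1.11.5, igraph 0.11.9), on genes that include those of the rule, and barcodes with the highest Scrublet scores (0.8% per 1000) were left out of clustering, among them 11 Lef1 Pdgfra cells, but kept in the sums. Thinning to 5000 UMIs was seeded. Shares have exact Clopper-Pearson intervals.

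The cells and gene lists were chosen with earlier results of these data known. Genes named are the 10 largest rises and falls among those passing with a mean of at least 20 CPM and one side in every library, up to 5 of smallest p where fewer than 5 passed, and up to 4 of smallest p from each list. Others are named as the members of a list that passed. Alternatives covered size factors, the low-count filter, Lef1 and mitochondrial limits, other exclusions, doublets, sex, equal cell numbers, tool, block and each library left out. One gene of the retinoic acid list is not reported here.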

Additional observations from a re-analysis of the deposited data

How the results depend on the processing

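For mutant against control in Lef1 Pdgfra cells, 0 genes passed with RLE size factors, DESeq2, at least 2 CP10k of Lef1, mixed barcodes left out, equal cell numbers, no exclusion limits, the highest doublet scores left out, at most 10% mitochondrial UMIs, male cells alone or cluster 4 alone. Without the low-count filter 2 genes were higher and 15 lower, and 3 were lower with barcodes holding UMIs of other types left out. With the replicate number as a block 1 was higher and 22 lower; the labels do not say that numbers mark a shared batch, and the deviations of equally numbered libraries correlated at 0.294 over 6366 genes. The planned fit on female cells was not run because control library 1 holds 1 such cell; without that library, a choice made once the data were seen, 11 genes were lower. Leaving out each library gave 0 to 56 higher and 7 to 76 lower.

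Against Lef1-low Pdgfra cells, 1366 genes were lower without the low-count filter. At least 2 CP10k of Lef1 gave 380 higher and 491 lower, leaving out barcodes with UMIs of other types 263 and 416, and cluster 4 alone, added after seeing the data, 45 and 91, of which 43 and 80 were among those passing before. Leaving out each library gave 255 to 455 higher and 357 to 582 lower. Cenpe and Hmmr turned to -0.31 and -0.24 at 2 CP10k of Lef1, neither passing there. The cause was not tested.

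The difference of mutant effects had 21 genes higher and 19 lower without the low-count filter, 1 lower at 2 CP10k of Lef1, and 1 to 23 higher and 0 to 59 lower with each library left out. The difference in share of passed barcodes (2.59 points) turned to -0.0745 at 2 CP10k of Lef1, to -3.69 over Pdgfra cells and to -1.34 over Pdgfra cells thinned to 5000 UMIs, the last 2 added after seeing the data, and ran from 0.236 to 4.94 with each library left out. The block left the mean difference at 2.59 points, -1.04 for number 1 and 6.21 for number 2. The smallest libraries, with 22 and 18 of these cells, limit the precision of each comparison that uses them.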

Other observations

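Genes outside signalling and matrix also differed between Lef1 Pdgfra and Lef1-low Pdgfra cells. Over all 10886 genes tested, 6.57% were higher and 6.84% lower. Of 20 genes that respond to tissue dissociation, 3 rose and 11 fell in edgeR, with a median log2 fold change of -0.56. The 3 that rose were heat shock genes, Hspa8, Hsp90aa1 and Hsph1, and the 11 that fell included immediate early genes. Fos had 422 and 417 CPM in mutant and 216 and 407 CPM in control Lef1 Pdgfra cells, against 1342 and 697 CPM in mutant and 344 and 782 CPM in control Lef1-low cells, and was lower in each library. Egr1 had 468 and 271 CPM in mutant and 236 and 299 CPM in control Lef1 Pdgfra cells, against 927 and 372 CPM in mutant and 294 and 542 CPM in control Lef1-low cells. Within cluster 4 alone none of 19 rose and 3 fell.

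Of 12 hypoxia and glycolysis genes, Pgk1, Eno1, Ldha and Hk2, enzymes of glycolysis, rose and Adm, which encodes adrenomedullin, fell. Of 17 guidance and adhesion genes, Plxna2, a semaphorin receptor, rose and 6 fell, among them Sema3c and Slit2, secreted guidance cues, and Nrp2, a semaphorin co-receptor. Within cluster 4 alone 1 of 9 hypoxia and glycolysis genes and none of 17 guidance genes rose, and none and 3 fell.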
